A study of Gallus gallus with 3 samples.

Results

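MBP, ERBB3 and FABP7 were followed as genes of glial precursors and myelin in neural crest cells (NCCs) of the chicken embryo. The genes were chosen by symbol, and every probe set that the platform annotation assigns to them was taken. A probe set is the group of short oligonucleotides that reads 1 transcript on the array. MBP had 3 probe sets, FABP7 had 1 and ERBB3 had 0, so 2 of 3 genes with 4 probe sets could be measured, of 13009 named genes and 38439 probe sets in all. ERBB3 was therefore not analysed here, and the neuregulin system in which it acts was described through its ligands, partner receptors and relay proteins.

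The study compared trunk NCCs at a migrating stage (HH16) and at a stage when they begin to gather into ganglia (HH19), and added cranial NCCs of HH9. HH numbers are the Hamburger and Hamilton stages of chick development. All groups were white leghorn embryos with no transgene or treatment, and the cells were purified with magnetic beads through HNK1, a sugar epitope on the surface of migrating crest cells. Affymetrix chicken genome arrays were used, and 3 arrays were analysed here, 1 for each group. The difference between any pair of arrays therefore has no replicate check, no p-value is given, and the number of arrays limits the precision.

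The stage labels of the trunk arrays conflict. The age field of the array titled HH16 reads HH19 and that of the array titled HH19 reads HH16, while the descriptions of both name HH16. They are called the HH16-titled array and the HH19-titled array below, and which stage each holds is treated as unknown. The trunk cells came from trunk explants freed of ectoderm and notochord with an enzyme. By the study's results section, the neural tube was also dissected away from the trunks of both stages. The HH9 cells came from heads of pooled embryos by the methods, although the source name of that array says trunk. Neural tube and notochord were taken out of these heads first, also by the methods. Stage, axial level and dissection change together between the HH9 array and the trunk arrays and cannot be told apart. The cells were profiled in bulk, so fewer cells of a type and less RNA per cell cannot be told apart either.

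NCCs give rise to the glia of peripheral nerves and ganglia. Schwann cell precursors form first, travel along growing axons and depend on neuregulin from those axons, as shown in the mouse. They become immature Schwann cells, and some later wrap axons in myelin. ERBB3 is the neuregulin receptor of this lineage. Its own kinase is weak and it signals through its partner ERBB2. FABP7, also called brain lipid binding protein, is a small carrier of fatty acids in the cytoplasm and marks radial glia of the central nervous system and early glia of the peripheral nervous system. MBP, myelin basic protein, holds the cytoplasmic faces of the myelin membrane together. In mouse and human the MBP locus also makes golli transcripts, which occur in cells without myelin. No source used here says which MBP transcripts the probe sets read.

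MBP was the member that differed between the arrays. Its brightest probe set had a MAS5 signal of 1151 on the HH16-titled array, 485 on the HH19-titled array and 208 on the HH9 array. A MAS5 signal is the linear summary of a probe set after scaling of the array. The HH16-titled array was thus the brightest and the HH9 array the dimmest. The signal on the HH16-titled array was 2.38-fold that on the HH19-titled array (log2 ratio 1.25). By the array titles this direction is opposite to the study's, which places MBP higher at HH19. Read by the age fields, the direction is the same as the study's. The HH9 array lay 5.53-fold below the HH16-titled array (log2 ratio -2.47) and 2.33-fold below the HH19-titled array (log2 ratio -1.22).

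The other 2 MBP probe sets ran in the same order. A signal under 99.8, the 40th percentile of all signals, was raised to this floor before a ratio was taken, and where this touched 1 of the signals compared, the fold can only be larger than stated and carries the words "at least". The second probe set gave 307 on the HH16-titled array, 129 on the HH19-titled array and 83.6 on the HH9 array. It was 2.38-fold higher on the HH16-titled array than on the HH19-titled array, and at least 3.08-fold and at least 1.29-fold higher on the respective trunk arrays than on the HH9 array. The remaining probe set gave 252, 74.7 and 46.5 in the same order of arrays, and only its signal on the HH16-titled array was above the floor. That signal was at least 2.53-fold higher than on either other array. These 2 were designed from the same transcript cluster and are not independent of each other. All 3 MBP probe sets were read from the same 3 arrays, so their likeness is no replicate of the cells.

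FABP7 had nearly the same signal on every array. Its single probe set gave 8292 on the HH16-titled array, 8267 on the HH19-titled array and 9032 on the HH9 array. The log2 ratio between the trunk arrays was 0.0044, and the HH9 array was 1.09-fold above either of them (log2 ratios 0.12 and 0.13). These signals lay below the highest signals of the arrays, which were between 33777 and 41744. Since the response of probe sets differs, this does not show whether the FABP7 probe set was near its own ceiling, which was not tested. The sign of such small ratios depended on the scaling. With each array centred on its median, the trunk ratio of FABP7 was -0.05, and with quantile normalization the ratio of HH9 over the HH16-titled array was -0.02.

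**Figure D1:**
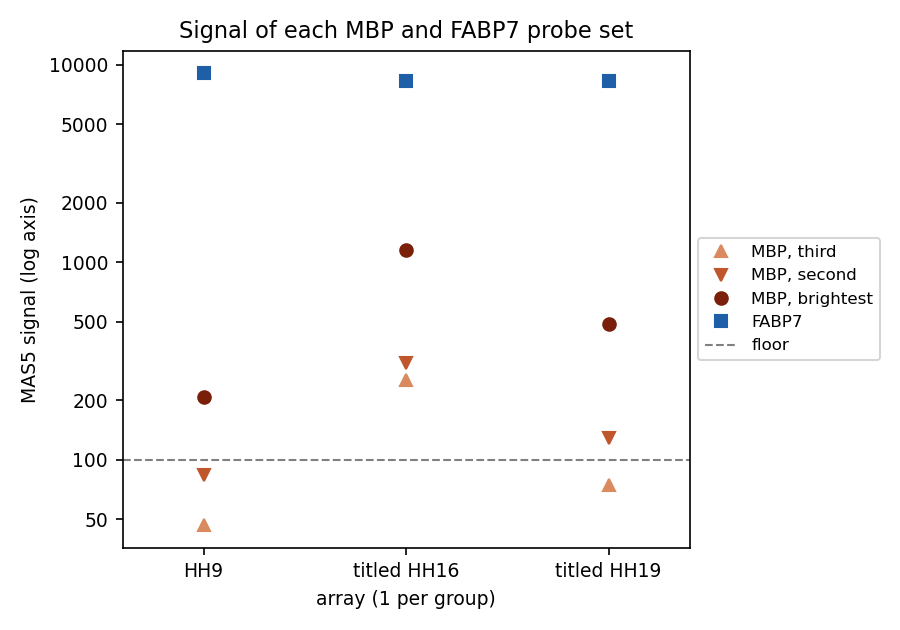
MAS5 signal (log axis) of the 3 MBP probe sets and the FABP7 probe set on each of the 3 arrays, with the floor of 99.8 as a dashed line. Each point is 1 array. Every MBP probe set was brightest on the HH16-titled array and dimmest on the HH9 array, whereas FABP7 stayed between 8267 and 9032.

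Counting a gene when its brightest probe set differed by at least 2-fold, 1 of 2 measured members, MBP, was higher on the HH16-titled array than on the HH19-titled array. Among all named genes with a ratio, 1.93% were higher in this direction and 1.54% in the other. MBP was also the 1 member higher on the HH16-titled array than on the HH9 array, where 6.80% of all genes were called and 3.20% were called in the other direction. Finally, MBP was higher on the HH19-titled array than on the HH9 array, as were 5.34% of all genes, while 2.58% were higher on HH9. Over probe sets in place of genes, 3 of the 4 member probe sets passed 2-fold in favour of the HH16-titled over the HH19-titled array, against 2.22% of all probe sets, and 0 were higher on the latter, against 1.30%. The same 3 were higher on the HH16-titled array than on HH9, against 6.77%, with 0 higher on HH9, against 2.87%. On the HH19-titled array, 1 was higher than on HH9, against 4.77%, and 0 were lower, against 2.31%.

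The size of the MBP ratio was exceeded by few genes. Between the trunk arrays, 191 of 10681 genes (1.79%) had a larger ratio in either direction. For HH9 against the HH16-titled array it was 131 of 10697 genes (1.22%), and for HH9 against the HH19-titled array it was 543 of 10643 genes (5.1%). FABP7 lay at the other end, with a larger ratio than its own in 10576 genes (99%), 8449 genes (79%) and 7787 genes (73.2%) in the same comparisons. The median log2 ratio over all genes was -0.017 between the trunk arrays, 0.0086 for HH9 over the HH16-titled array and -0.00044 for HH9 over the HH19-titled array. Centring each array on its median moved the last 2 medians to 0.16 and 0.10 and made the calls more even, from 721 probe sets higher on HH9 and 1704 higher on the HH16-titled array to 1074 and 1340, and from 576 higher on HH9 and 1188 higher on the HH19-titled array to 792 and 994. Quantile normalization gave 949 and 1414, and 713 and 1026.

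**Figure D2:**
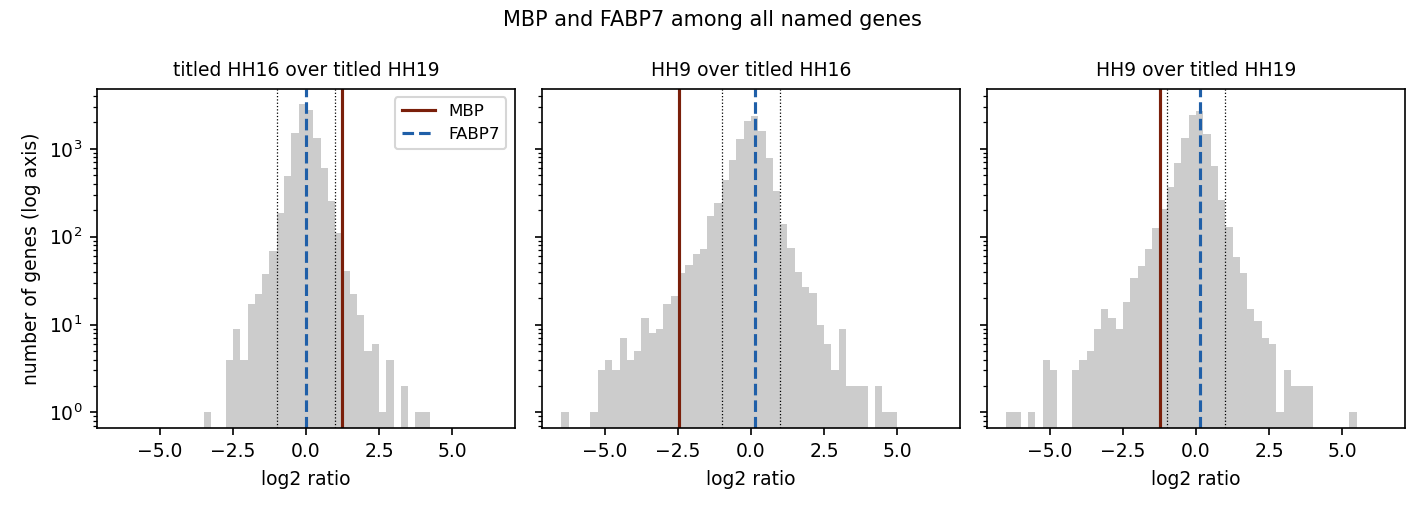
Number of named genes (log axis) by log2 ratio in the 3 comparisons, with MBP (solid line) and FABP7 (dashed line) marked. Dotted lines mark a 2-fold difference. MBP fell outside them in each comparison, at 1.25, -2.47 and -1.22, and FABP7 lay near 0.

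Both steps of the MBP pattern, from HH9 up to the HH19-titled array and from there up to the HH16-titled array, were at least 2-fold. Of 10402 genes with a ratio at both steps, 37 (0.356%) met this. Apart from MBP they included UGT8, the enzyme that makes the galactolipids of myelin, the neuronal genes STMN2, ELAVL4, TAGLN3 and CHGA, the cell adhesion gene ALCAM and the GDNF receptor GFRA1. These genes were picked out after their values were seen. Of the 14 myelin structure genes measured besides MBP, UGT8 was the 1 among the 37, with 593 on the HH16-titled array, 204.5 on the HH19-titled array and 41.3 on the HH9 array.

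Over the 9322 genes above the floor on all 3 arrays, likeness to a member was measured as the distance between the 3 log2 signals after each gene was centred on its own mean. The 5 genes nearest to MBP were FZD4, a WNT receptor, at 0.132, CSRNP3, a nuclear protein, at 0.134, RBM38, an RNA-binding protein, at 0.138, FRMD3, a FERM domain protein, at 0.177 and WASF1, an actin regulator, at 0.177. FZD4 for example gave 3291 on the HH16-titled array, 1502 on the HH19-titled array and 676 on the HH9 array. Within a distance of 0.25 there were 12 genes for MBP and 3601 for FABP7. Most genes had ratios near 0, so by this measure a flat gene has many neighbours and a gene with large ratios has few. These counts therefore restate the size of the ratios given above. Genes under the floor on any array, such as UGT8, were left out. Nearest to FABP7 were SRPRA at 0.00271, SEC22A at 0.00756, PABPC4 at 0.00803, RNF20 at 0.00841 and ERI2 at 0.00842, which act in protein targeting, vesicle traffic, poly(A) binding, histone ubiquitination and RNA trimming. With 3 points per gene, such distances describe these arrays only.

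Genes that build myelin did not move as a block with MBP. Of 25 listed genes besides MBP, 18 had a named probe set. By the brightest probe set, 14 were above the floor on at least 1 array. Between the trunk arrays, 2 of 14 passed 2-fold in favour of the HH16-titled array and 0 in favour of the HH19-titled array, and the median log2 ratio was 0.24, against -0.017 over all genes. Over all genes 1.93% and 1.54% passed, and these shares are also the background of the later list counts between these arrays. UGT8 was 2.90-fold higher on the HH16-titled array (log2 ratio 1.54). CLDN11, the claudin of the myelin seams, gave 292, 130 and 155 on the HH16-titled, HH19-titled and HH9 arrays, and was 2.25-fold higher on the first than on the second. The others stayed under 2-fold, among them MOBP, a myelin-associated basic protein, with 214, 120 and 142, and CNP, an enzyme of non-compact myelin, which ran the other way with 328, 535 and 413. A floor at the 60th percentile brought CLDN11 to a log2 ratio of 0.31 and left UGT8 as the 1 gene called.

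Against the HH9 array, 3 of 14 myelin genes were higher on the HH16-titled array and 1 was lower, with a median log2 ratio of HH9 over the HH16-titled array of -0.63. Over all genes 6.80% were higher on the HH16-titled array, 3.20% were lower, and the median was 0.0086. UGT8 was at least 5.94-fold higher on the HH16-titled array than on HH9. PMP22, a membrane protein of peripheral myelin that many other cells also make, gave 1079, 944 and 485 on the HH16-titled, HH19-titled and HH9 arrays, and its HH9 signal was 2.22-fold below that of the HH16-titled array. Another PMP22 probe set gave 1067, 1185 and 359. PLLP, plasmolipin, gave 206, 122 and 19.1, so its signal on the HH16-titled array exceeded that on HH9 at least 2.06-fold. Centred arrays brought PMP22 to -0.99 and PLLP to -0.97 on the log2 scale, which left UGT8 as 1 gene in place of 3, and without a floor there were 6. GJB1, the gap junction protein connexin 32, was the 1 gene past 2-fold in favour of HH9. It gave 614 and 892 on the trunk arrays and 2636 on HH9, 4.29-fold and 2.95-fold higher there. Against the HH19-titled array, 1 of 13 was higher on HH9 (GJB1), 1 was lower (UGT8, at least 2.05-fold), and the median was -0.29. Over all genes 2.58% were higher on HH9, 5.34% were lower, and the median was -0.00044. The shares of both HH9 comparisons are also the background of the later list counts against HH9. By their brightest probe sets, MOG, OMG, MAL and BCAS1 were under the floor on every array. Another MAL probe set reached the floor on HH9 but on neither trunk array. PMP2 and MAG, which Schwann cells express together with MBP when they make myelin, had no named probe set and were not analysed here.

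**Figure D3:**
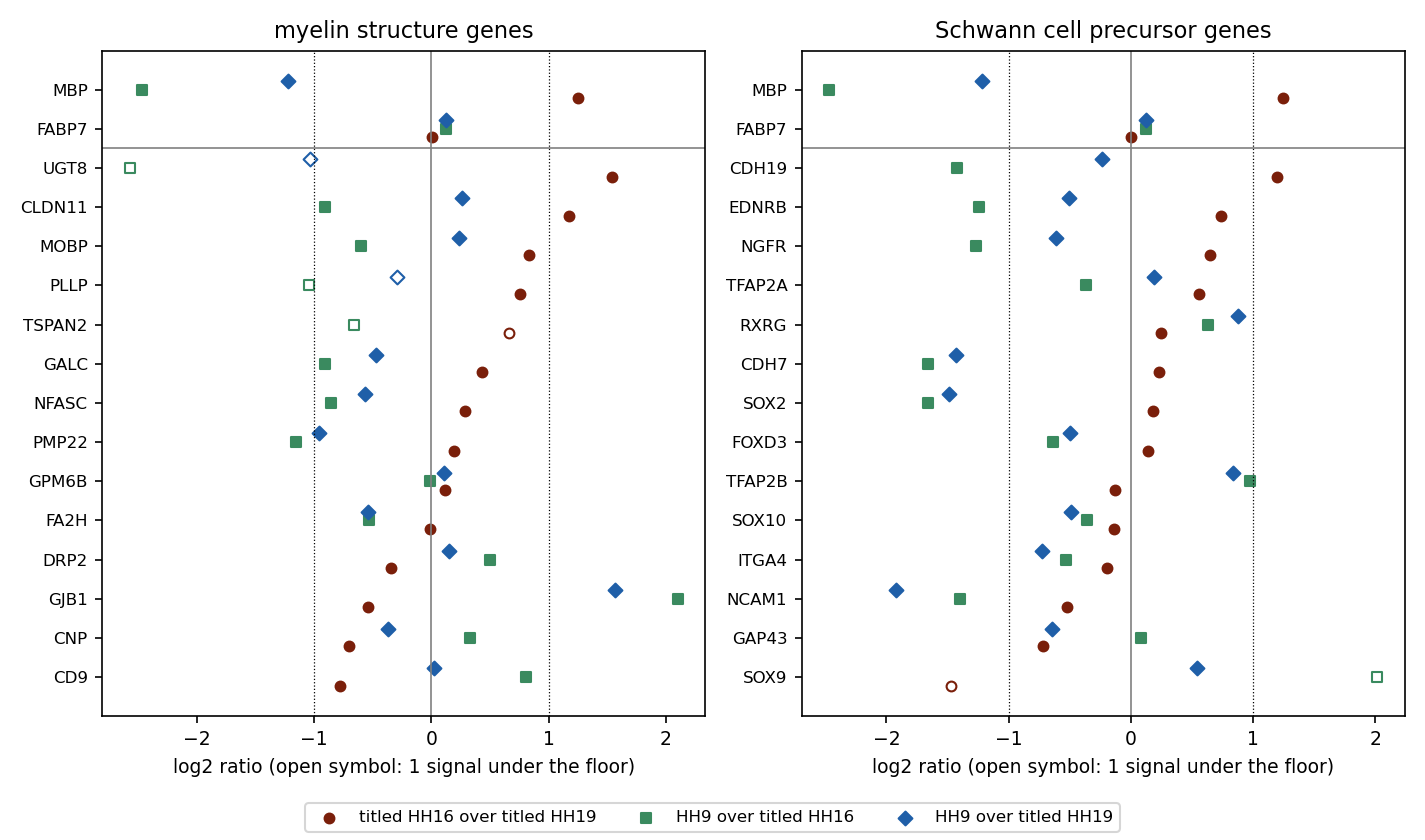
Log2 ratios of myelin structure genes (left) and Schwann cell precursor genes (right) in the 3 comparisons, with MBP and FABP7 above the line. Circles, squares and diamonds are the comparisons, open symbols have 1 signal under the floor, and dotted lines mark 2-fold. UGT8 lay nearest to MBP on the left, and CDH7, SOX2 and NCAM1 were at least 2-fold lower on HH9 than on both trunk arrays on the right.

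Of 18 listed genes of the Schwann cell precursor and of the crest cell it comes from, 14 were measured. Between the trunk arrays 1 was higher on each side and the median log2 ratio was 0.16. CDH19, a cadherin that marks Schwann cell precursors in the mouse, gave 443 on the HH16-titled array, 194 on the HH19-titled array and 165 on HH9, 2.29-fold apart between the trunk arrays. SOX9, a transcription factor of early crest and glial progenitors, was under the floor at 97.8 on the HH16-titled array and gave 278 and 404 on the other arrays, at least 2.78-fold higher on the HH19-titled array. Neither call held with the floor at the 60th percentile.

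SOX10, the transcription factor that the glial lineage needs and that drives MBP and ERBB3 in the mouse, was bright on all arrays. Its signals were 15746 on the HH16-titled array, 17338 on the HH19-titled array and 12315 on HH9. Another SOX10 probe set gave 9167, 9954 and 5727. The brighter probe set was 1.10-fold apart between the trunk arrays, while MBP was 2.38-fold apart. That SOX10 log2 ratio, -0.14, lay between the quartiles of all genes (-0.22 and 0.21), so its direction is not read. FOXD3, which holds crest cells in a precursor state, gave 6650, 6018 and 4273. Against HH9, 6 of 14 were higher on the HH16-titled array and 1, SOX9, was lower, with a median log2 ratio of -0.58. Over all genes 6.80% were higher and 3.20% lower, with a median of 0.0086. The 6 precursor genes were SOX2, CDH7, CDH19, NCAM1, NGFR and EDNRB. TFAP2B and RXRG were brighter on HH9 than on either trunk array, by under 2-fold. Another RXRG probe set ran the opposite way against the HH16-titled array, also by under 2-fold. CDH7, a cadherin of migrating crest and its glial derivatives in the chick, gave 2935, 2498 and 929. NGFR, the p75 neurotrophin receptor, gave 453, 289 and 189, and EDNRB, the endothelin receptor of trunk crest, gave 7200, 4325 and 3048. Against the HH19-titled array, 3 of 14 were lower on HH9 (CDH7, SOX2 and NCAM1), 0 were higher, and the median was -0.50. Over all genes 5.34% were lower and 2.58% higher, with a median of -0.00044.

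Of 15 listed symbols for regulators and markers of Schwann cell differentiation, 6 had a named probe set. EGR2 and POU3F1, the main switches towards myelin, had none and were not analysed here. Between the trunk arrays 0 of 6 were 2-fold apart (median log2 ratio 0.07). GFAP, an intermediate filament of mature glia, gave 200, 199 and 204 on the HH16-titled, HH19-titled and HH9 arrays, and S100B, a calcium-binding protein of glia, gave 160, 115 and 181. Neither followed MBP. EGR1, an immediate early gene expressed in immature Schwann cells, gave 1018, 1849 and 201, and was lower on HH9 by 2.34 and 3.20 on the log2 scale against the HH16-titled and HH19-titled arrays. It was the 1 of 6 called against the HH16-titled array, and against the HH19-titled array ADAM22, a receptor of the glial ligand LGI4, was the 1 of 5 that was higher on HH9, with 292 there.

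NRG1 and NRG2 are the neuregulins that bind ERBB3, while NRG3 and NRG4 bind ERBB4. NRG1, whose axonal forms sustain Schwann cell precursors, gave 526 on the HH16-titled array, 568 on the HH19-titled array and 543 on HH9 with its brightest probe set. Another NRG1 probe set gave 264, 231 and 81.2, so it fell under the floor on HH9 where the brightest did not, and a further one gave 66.5, 129 and 64.6. The probe sets of NRG1 thus differed in their pattern. NRG2 gave 374, 331 and 339, NRG4 gave 484, 387 and 377, and NRG3 was under the floor throughout. By their brightest probe sets, 0 of the 3 neuregulins with a ratio were 2-fold apart in any comparison.

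The partner receptors were dim. ERBB2, the partner through which ERBB3 signals, lay just under the floor at 96.5 and 96.7 on the trunk arrays and gave 149 on HH9, at least 1.49-fold above either. EGFR, the receptor of epidermal growth factor and a possible partner of ERBB3, gave 92.9, 59.9 and 111. ERBB4, a neuregulin receptor with a kinase of its own, gave 215 on the HH19-titled array and was under the floor at 30.3 and 16.8 on the HH16-titled array and on HH9. It was at least 2.15-fold higher on the HH19-titled array than on either. A dim probe set does not show that a receptor is absent, since the response of probe sets differs.

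**Figure D4:**
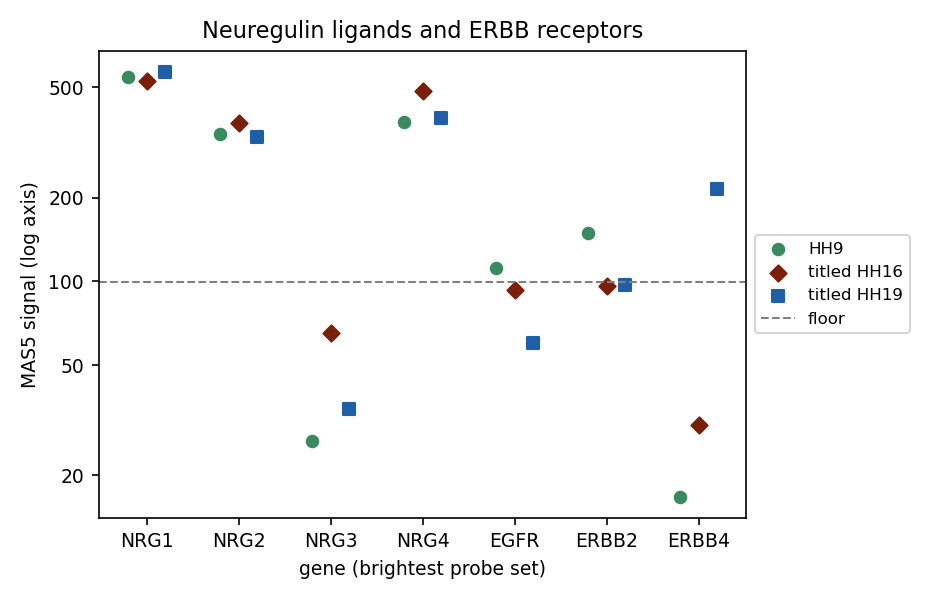
MAS5 signal (log axis) of the brightest probe set of each neuregulin and each measured ERBB receptor on the 3 arrays, with the floor of 99.8 as a dashed line. Each point is 1 array and heights are comparable within a gene only. By these probe sets NRG1, NRG2 and NRG4 were within 2-fold in every comparison, and ERBB4 was above the floor on the HH19-titled array alone.

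Relay proteins downstream of the receptors were all above the floor and differed little. Of 18 measured, 0 were 2-fold apart between the trunk arrays (median log2 ratio 0.27) and 0 between HH9 and the HH19-titled array (median -0.03). HRAS, a small GTPase of the MAP kinase path, was the 1 gene 2-fold higher on the HH16-titled array than on HH9, with 1555 against 662. Of 10 genes that restrain or process ERBB receptors and their ligands, 1 was called in each direction between the trunk arrays and 1 in each direction between HH9 and the HH16-titled array, and 1 of 9 was lower on HH9 than on the HH19-titled array. Among them, LRIG1, which leads ERBB receptors to degradation, gave 1109, 2243 and 604. It was 2.02-fold higher on the HH19-titled array than on the HH16-titled array and lower by 1.89 on the log2 scale on HH9 than on the HH19-titled array. LRIG3 gave 283, 452 and 653 and was 2.31-fold higher on HH9 than on the HH16-titled array, while its other probe set ran the opposite way by under 2-fold. RNF41, the ubiquitin ligase that removes ERBB3, gave 227 on the HH16-titled array and was under the floor on the others at 51.4 and 30.1, at least 2.27-fold lower.

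The relatives of FABP7 were less even than FABP7 itself. Of 7 listed, 6 had a named probe set and 3 were above the floor. FABP3, the fatty acid binding protein of heart and muscle, gave 208 on the HH16-titled array, 137 on the HH19-titled array and 6007 on HH9, a log2 ratio of HH9 over the HH16-titled array of 4.85. FABP5, which Schwann cells and skin also make, gave 2250, 1166 and 476, so it had the order of MBP, with 1.93-fold between the trunk arrays. FABP6 gave 301, 276 and 123, and 1 other probe set of FABP6 ran the opposite way for HH9 against the HH19-titled array. FABP1, FABP2 and FABP4 were under the floor on every array. Between the trunk arrays 0 of 3 were 2-fold apart, and against HH9 1 was higher on HH9 and 2 were lower in both comparisons. Of 13 genes that take up, activate, lengthen or desaturate fatty acids or sense them, 0 were 2-fold apart between the trunk arrays. ACSL6, an acyl-CoA synthetase of brain, was the 1 gene higher on HH9 in both comparisons, with 3507 there against 557 and 938, although 1 of its 3 other probe sets ran the opposite way, by under 2-fold, against the HH16-titled array.

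Radial glia genes, with which FABP7 is expressed in the central nervous system, moved in both directions while FABP7 did not. SOX2 and SOX9 belong to this list and to the Schwann cell precursor list. Of 18 measured, 3 were higher on the HH19-titled array than on the HH16-titled array and 0 were lower (median log2 ratio of the HH16-titled array over the HH19-titled array -0.10). PAX6, a transcription factor of neural progenitors, gave 362 on the HH16-titled array, 1965 on the HH19-titled array and 196 on HH9. PTPRZ1, a receptor phosphatase of radial glia, gave 753, 2167 and 649. SOX9, given above, also met the threshold. Against the HH16-titled array, 3 were higher on HH9 (NFIA, SOX9 and GLUL) and 5 were lower (NES, SOX2, SLC1A3, NOTCH1 and FGFR3), with a median of -0.50. With each array centred on its median, 3 in place of these 5 were lower. Over all genes, with the deposited scaling, 3.20% were higher on HH9 and 6.80% lower, with a median of 0.0086. NES, the intermediate filament nestin, gave 10382, 9704 and 2575. SLC1A3, a glutamate transporter of glia, gave 898, 1283 and 321, and NFIA, a factor that starts gliogenesis in the spinal cord, gave 70.8, 175 and 424. Against the HH19-titled array, 1 was higher on HH9 (NFIA) and 5 were lower, with a median of -0.50. The shares over all genes were 2.58% and 5.34%, with a median of -0.00044.

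MBP also marks oligodendrocytes, the myelin cells of the central nervous system. Of 12 listed genes of that lineage, 8 were measured. SOX8, a close relative of SOX10 that crest cells also express, gave 1330, 569 and 5006 and was the 1 gene higher on the HH16-titled than on the HH19-titled array, while 2 were lower, OLIG2 with 530 against 1752 and NKX6-2 with 267 against 566. On HH9, SOX8 and PDGFRA, the receptor of oligodendrocyte precursors and of much mesenchyme, were higher than on either trunk array, and PDGFRA gave 121, 237 and 2499. NKX6-1 was lower on HH9 than on both trunk arrays, and OLIG2 and NKX6-2 were lower there than on the HH19-titled array. OLIG2 and NKX6-1 are also neural tube markers.

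Markers of other cells also differed between the arrays, in both directions. Of 13 neuron markers measured, 7 were at least 2-fold higher on the HH16-titled array than on the HH19-titled array and 0 were lower (median log2 ratio 1.16), and 11 of 13 had the order of MBP, titled HH16 above titled HH19 above HH9, as did 21.6% of all genes. Their summed signal was 34896, 13367 and 9028 in that order. ISL1 and STMN2, both on this list, gave 5215, 530 and 285, and 4911, 1320 and 142. ELAVL4, also listed, gave 2517, 988 and 114. SNAP25 gave 499, and 95.3 and 61.2 under the floor. The study describes each of these as lower at HH16 than at HH19. As for MBP, that is the direction by the age fields and not by the array titles. The study also counts TWIST among the genes up-regulated at HH19. TWIST1, taken here as that gene, gave 15.2 on the HH16-titled array and 516 on the HH19-titled array, at least 5.17-fold higher on the latter. That is the direction by the array titles and not by the age fields, so the genes compared did not all point the same way. TWIST1 differed in this from MBP and the neuron markers named here. In the myelin structure list 6 of 14 genes had this order, and in the Schwann cell precursor list 6 of 14. The part of neurons in the MBP signal was not tested. Melanoblast markers summed to 3929, 1136 and 1248, with 3 of 7 higher on the HH16-titled array than on the HH19-titled array, and macrophage markers summed to 1549, 979 and 731, with 1 of 4 higher (SPI1).

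Neural tube markers went the other way. Of 9 measured, 7 were higher on the HH19-titled array than on the HH16-titled array, 0 had the order of MBP, and their summed signal was 7725 on the HH16-titled array, 17668 on the HH19-titled array and 3817 on HH9. PAX6 belongs to this list and to the radial glia list, and the part of neural tube cells in the radial glia values was not tested. FABP7 gave 8292, 8267 and 9032 on the same arrays and so did not have the order of this sum. The part of neural tube cells in the FABP7 signal was not tested. Somite and sclerotome markers summed to 816, 1960 and 2969. TWIST1, taken as the TWIST that the study counts as a crest gene, made 15.2, 516 and 1941 of this. Against the HH19-titled array, 1 of 6 was higher on HH9 (TWIST1) and 1 was lower (NKX3-2). Ectoderm and epithelial markers summed to 2117, 3150 and 4458, and CLDN1 made 208, 896 and 2112 of this. Erythroid markers summed to 820, 1237 and 706, endothelial markers to 1365, 1897 and 1257, and notochord markers to 1334, 1267 and 1119. Between the trunk arrays, 1 of 5 notochord markers, FOXA2, was at least 2.12-fold higher on the HH19-titled array, and 0 were lower. The 3 enzymes that make the HNK1 epitope used for the sort were within 2-fold in every comparison.

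**Figure D5:**
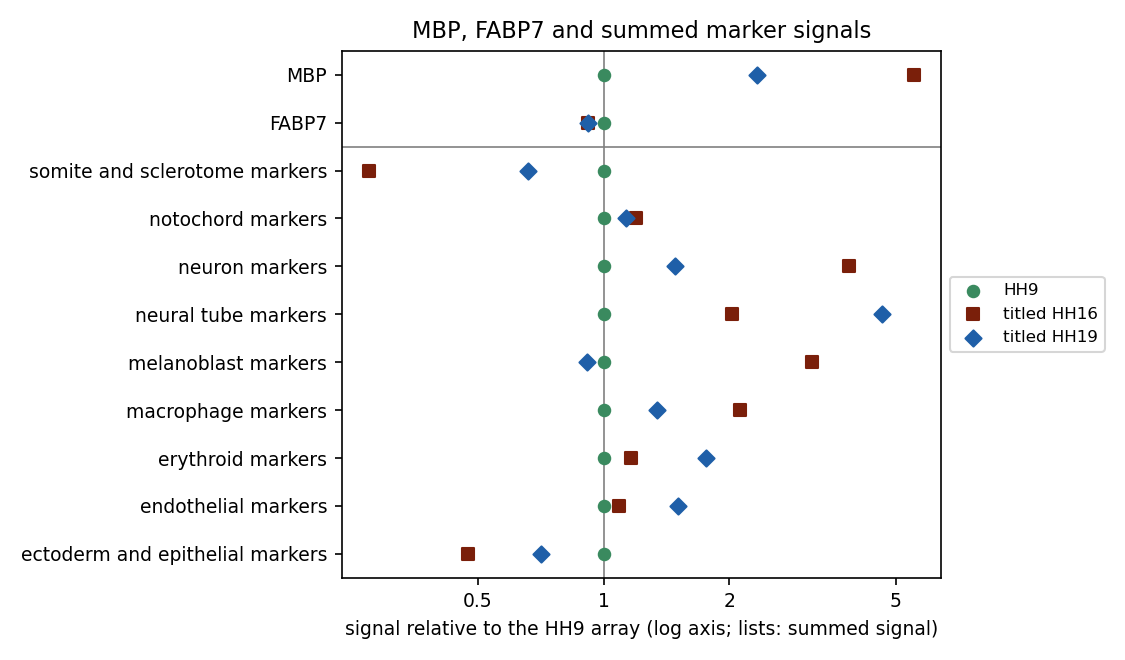
Signal of MBP and FABP7, and summed signal of each marker list, relative to the HH9 array (log axis). Each point is 1 array. MBP and the neuron markers were highest on the HH16-titled array and lowest on HH9, neural tube markers were highest on the HH19-titled array, and FABP7 stayed near 1.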

How the data were processed

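The deposited values are MAS5 intensity signals on a linear scale per probe set, made for the authors by an outside company per the labels and methods. No source used here gives the MAS5 version or settings, nor whether an array is 1 replicate, a pool or a mean of the 3 replicates the methods describe. From the values, each array is scaled to a mean of about 500 with 2% trimmed at each end. The table holds 38535 probe sets, of which 96 are controls and were not used. The platform annotation gives 1 gene symbol to 27168 of the 38439 used, several to 177 and none to 11094. Between 58.8% and 61% of probe sets per array were at or above the floor. No detection calls and no scan dates were used here.

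A gene is represented by its brightest probe set (mean log2 signal over the arrays), and every probe set of a member is shown. A difference is called at 2-fold. Named genes are the members, genes of 21 lists at least 2-fold apart whose brighter signal reached 199.7 (up to 6 a list), direct partners of a member and the 5 nearest genes. Others are named for their level or role and were chosen after their values were seen. The members and lists were chosen with earlier results of these data known. The step that makes the calls was run on simulated data with known folds. The folds were put only into probe sets well above the floor, so calls of dim probe sets were not covered. No sequence tables were used here, so a planned search for SOX motifs in promoters was not run. Alternatives were another scaling (median centring or quantile normalization), another floor (20th percentile, 60th percentile or none), a threshold of 3-fold, only probe sets specific to 1 transcript by their ID, and the median over a gene's probe sets. Python 3.11.15, numpy 2.4.6, pandas 2.3.3 and matplotlib 3.10.9 were used.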

Additional observations from a re-analysis of the deposited data

How the results depend on the processing

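Each comparison rests on 1 array against 1, and no replicate could be left out because each group has 1 array here. No paired analysis was possible because each group has a single array and no test was run. The ratios of the brightest MBP probe set kept their direction and stayed past 2-fold under every alternative run on them, and FABP7 stayed under 2-fold. Raising the floor to the 60th percentile took the other MBP probe sets under 2-fold, to bounds of 0.10 and 0.39 for the HH16-titled array over the HH19-titled array and of -0.10 and -0.39 for HH9 over the HH16-titled array, since a higher floor hides more of a dim signal. The member count of 1 between the trunk arrays became 0 at 3-fold. Between HH9 and the HH19-titled array it became 0 at 3-fold and 0 with the median over probe sets. Probe set counts are given as higher on titled HH16 and on titled HH19, then on HH9 and on titled HH16, then on HH9 and on titled HH19. They were 1932, 1330, 1869, 3448, 1847 and 2707 for a 20th percentile floor, 243, 131, 431, 903, 319 and 601 for a 60th percentile floor, 4039, 2987, 3652, 5427, 3938 and 4539 with no floor, and 122, 68, 215, 614, 149 and 366 at 3-fold. The median log2 ratio of the other FABP genes for HH9 over the HH16-titled array changed sign, to 0.20 at the 20th percentile floor and 0.0091 without a floor, where genes under the floor enter it. Low signals limit the dimmer MBP probe sets, of which both had at least 1 array under the floor.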
